A study of Homo sapiens with 24 samples.

Results

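C/D box snoRNA genes encode short nucleolar RNAs. On the array table used here they were taken as every single gene symbol that begins with SNORD and a digit, without the SNORD113 to SNORD116 families, and each symbol was represented by its transcript cluster (the array's unit of measurement) with the highest mean over 24 arrays. This gave 89 symbols of the 33616 symbols with a cluster in the table. Total RNA came from the R-2A line (HiPS-RIKEN-2A) of human induced pluripotent stem cells (hiPSCs) and was hybridized to Clariom D arrays, which hold probes for coding and noncoding transcripts. Cells transduced with lentivirus carried either a control shRNA (sh-C) or an shRNA against *ROR2* (*ROR2* KD), and both lines were selected with puromycin. They were measured undifferentiated (day 0) and on days 7, 14 and 21 of induction to neural stem/progenitor cells (NS/PCs) with a SMAD inhibitor kit, with 3 biological replicates per line and day. All samples thus share 1 parental line, the viral backbone and the selection. Which *ROR2* shRNA was used for the arrays is not given in the sources used here, and any other difference between the transduced lines cannot be told apart from the knockdown. The labels do not say whether the replicates were separate transductions, so the p-values measure the spread between these samples.

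A C/D box snoRNA carries the short C and D motifs, binds the proteins FBL, NOP56, NOP58 and SNU13, and base-pairs with a target RNA to direct 2′-O-methylation of a nucleotide. Most targets lie in ribosomal RNA (rRNA), a few lie in the U6 spliceosomal RNA, and U3, U13 and U14 (the SNORD3, SNORD13 and SNORD14 genes) act in cutting or folding of the rRNA precursor. In human cells most of these RNAs are processed from introns of host genes, many of which encode ribosomal or nucleolar proteins or noncoding host RNAs, whereas the U3 and U13 genes have promoters of their own.

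The host genes introduce the results, because several snoRNAs below lie together in a host gene and moved apart from each other or from it. By RefSeq spans (GRCh38.p14), 60 symbols lay inside 48 host genes, 11 of them in ribosomal protein genes. No host was looked up for 22 symbols whose cluster lay on another chromosome than the RefSeq gene, so these counts do not cover them. Spans were compared without strand. Ribosomal protein genes typically start transcription in a run of pyrimidines, and RefSeq start regions were available for 38 hosts. The 30 bases around the annotated first base are shown for the hosts of the snoRNAs on which the results turn, from 20 bases before it, with capitals marking an unbroken run of at least 5 C or T that covers the first base on the transcribed strand.
RPL7A (host of SNORD24, SNORD36A and SNORD36C, chr9:133348198-133348227, + strand): attacccacaaTTCCCTTTCCTTTCTCTCT
RPS12 (host of SNORD100 and SNORD101, chr6:132814549-132814578, + strand): ggcatgcgtgcggatgaggCCTCTTTCCCT
AP1G1 (host of SNORD71, chr16:71808825-71808854, - strand): gccgagggagccgccattttggatgttcgg
TNPO2 (host of SNORD41, chr19:12723923-12723952, - strand): tgtttctcagcccaggtttcagtccagcgg
CHD8 (host of SNORD8 and SNORD9, chr14:21437266-21437295, - strand): gcggggcgggcaggagcatcaggttaggtt
Such a run was found in 12 of the 38 host start regions (31.6%), in 6 of 6 ribosomal protein hosts and in 6 of the 32 other hosts (18.8%). Of all 27305 RefSeq start regions, 9.8% held one. The match is to letters only. The snoRNA sequences themselves are not printed here.

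Whether a symbol was measured at its own gene was checked first. Of the 89 symbols, 56 had a cluster with an Entrez gene ID of their own, and all 56 matched the RefSeq symbol and chromosome. A further 7 had no such ID but lay on the right chromosome, 3 (SNORD24, SNORD36A and SNORD36C) were on unplaced clusters, and 1 (SNORD39) has no RefSeq gene of that symbol. The other 22 symbols were represented by a cluster on a different chromosome from the RefSeq gene, which may be a related copy or a pseudogene. They include 6 of the 7 measured snoRNAs hosted by the noncoding RNA gene *GAS5* and all 5 measured ones hosted by *SNHG1*, so these families are not described as such below. Unless a subset is named, counts of members or snoRNAs below cover all 89 symbols, these 22 included. RefSeq lengths of 88 symbols ran from 60 to 237 bases with a median of 80. The U3 genes SNORD3A, SNORD3B-2, SNORD3C and SNORD3D are near-identical copies and SNORD13P1 and SNORD13P3 are pseudogenes, so signals within these families may be shared.

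Signal was compared with the 95th percentile of 23 background probe sets on the same array (the background level), which lay between 7.30 and 9.97 on the log2 scale. On this measure 29 symbols were above background on all 24 arrays, 40 on no array and 20 on some. Among the 56 with their own gene ID, 24 were above background on all arrays and 16 on none. Of the 22 on another chromosome, 18 were above it on no array and only SNORD46 was above it on all. The highest means over 24 arrays belonged to SNORD13 (19.09, range 18.72 to 19.60), which is U13, followed by SNORD24 (16.33), SNORD3A (16.15), SNORD13P3 (15.93) and SNORD41 (15.80). The lowest belonged to SNORD97 (3.29), SNORD125 (3.24), SNORD29 (2.92), SNORD44 (2.91) and SNORD79 (2.83). A signal is not scaled to transcript length or probe affinity, so this order is not an order of abundance.

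**Figure D1:**
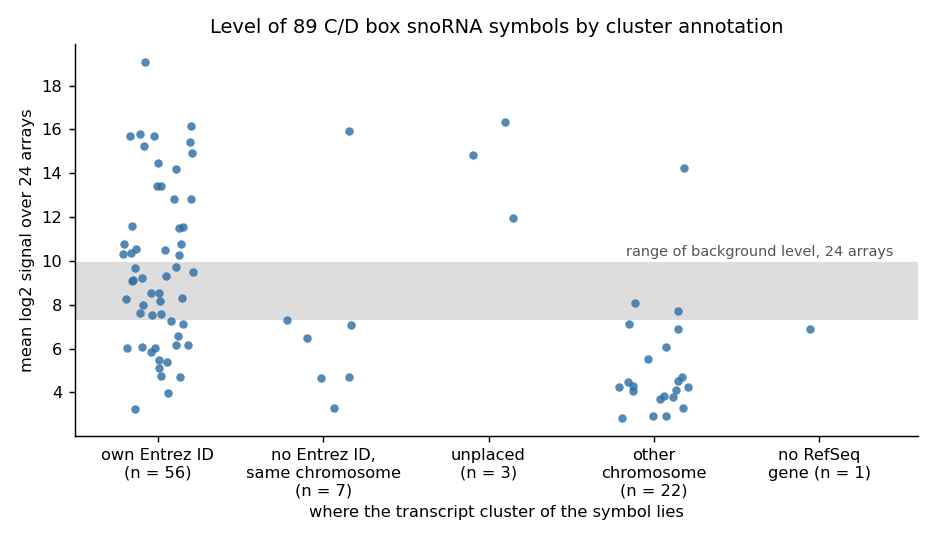
Mean log2 signal over 24 arrays of each of the 89 symbols (points), by where its transcript cluster lies, with the range of the background level over the arrays in grey. The 56 symbols with their own Entrez ID lie between 3.24 and 19.09, and 18 of the 22 on another chromosome were never above background.

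The deposited values were normalized across arrays, so the array medians cannot show whether total signal changed. Array medians over all 135750 clusters lay between 4.26 and 4.51, and arrays of a group correlated with each other at r = 0.963 to 0.987 across clusters, which are not independent replicates. The background level was higher on day 0 (8.96 to 9.97) than later (7.30 to 8.87). *ROR2* was lower in *ROR2* KD by 2.51, 2.62 and 2.56 (log2) on days 0, 7 and 14 (limma, adjusted p = 0.000165, 5.85e-05 and 1.98e-06) and 0.89 lower on day 21, where the call was lost (adjusted p = 0.0823). It was above background only in sh-C on day 7. The pluripotency gene *POU5F1* fell from 17.75 to 5.81 in sh-C and from 17.85 to 5.95 in *ROR2* KD between days 0 and 7. The astrocyte genes *GFAP* and *AQP4* and the mesoderm and endoderm genes *TBXT*, *SOX17* and *FOXA2* were below background on all arrays. The NS/PC gene *PAX6* and the neuron genes *STMN2* and *DCX* were above it on all arrays of day 14. On that day they were also called higher in *ROR2* KD than in sh-C, by 2.23, 1.73 and 1.22 (limma, adjusted p = 2.51e-05, 0.00653 and 0.00343).

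The snoRNAs themselves were compared with these array medians. The median of the 29 symbols always above background ran from 12.98 to 13.58 on the 6 arrays of day 0 and from 13.80 to 15.01 on those of day 7. In sh-C it was 13.40 to 13.64 on day 14 and 13.26 to 13.64 on day 21, and in *ROR2* KD 13.43 to 13.67 and then 14.23 to 14.75. Among these 29, the day with the highest group mean was day 7 for 14 in sh-C and for 19 in *ROR2* KD. Day 21 was the highest for 2 in sh-C and 7 in *ROR2* KD. Replicate 1 of *ROR2* KD on day 7 stood high, with 68 of 89 symbols above the mean of its group and a median deviation of 0.401, and replicate 3 of the same group stood low (-0.299). On day 21, *ROR2* KD replicate 1 (0.275) and replicate 2 (-0.322) differed likewise.

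**Figure D2:**
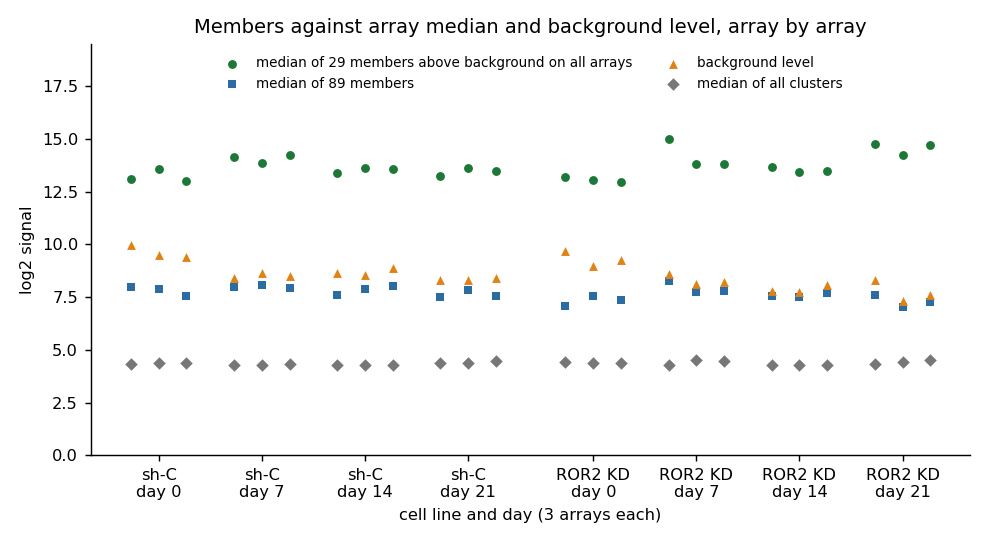
Log2 signal of each of the 24 arrays (3 per line and day) as the median of 29 symbols always above background (circles), the median of all 89 (squares), the background level (triangles) and the median of all clusters (diamonds). The array medians, of values normalized across arrays, stay between 4.26 and 4.51. The circles reach 15.01 on 1 *ROR2* KD array of day 7 and lie at 14.23 to 14.75 on day 21 in *ROR2* KD.

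In sh-C, the first week of induction raised 27 of 89 snoRNAs and lowered 8 (adjusted p under 0.05 and fold above 2, limma over all clusters), against 10.2% of all symbols that rose and 17.4% that fell. The 27 are 30.3% of the members and the 8 are 8.99%. On a cluster of another chromosome than the RefSeq gene were 4 of the 27 and 1 of the 8. Of the 56 symbols with their own gene ID, 20 were called higher and 6 lower (35.7% and 10.7%). SNORD71, a guide for 5.8S rRNA, rose most, SNORD41 and SNORD36C, guides for 28S rRNA, rose by more than 4-fold, and SNORD93 and SNORD72, guides for 18S and 28S rRNA, fell most among those that fell. The median change was 0.32 on the log2 scale, against -0.23 over all symbols. Of the 27, 10 were below background on all 6 arrays, as were 3 of the 8. In bulk RNA, fewer cells with an RNA and less RNA per cell cannot be told apart. The column kit used for total RNA retains short RNAs poorly, and whether their recovery differed between samples was not tested. Other small RNA classes also rose: 25 of 74 H/ACA box snoRNA symbols, 46 of 63 symbols of SNORD113 to SNORD116 and 408 of 1742 spliceosomal RNA symbols were called higher.

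*ROR2* KD cells changed in the same direction over the same week, with 38 snoRNAs higher and 4 lower, against 10.9% and 14.8% of all symbols. Of the 56 symbols with their own gene ID, 29 were called higher and 2 lower (51.8% and 3.57%). The median change was 0.72, against -0.14 over all symbols. All 27 snoRNAs that rose in sh-C rose in *ROR2* KD, and SNORD64, SNORD72 and SNORD93 fell in both. A further 11 were called higher in *ROR2* KD alone, among them the 4 U3 copies, and SNORD4A, SNORD11, SNORD14A, SNORD24 and SNORD70 were called lower in sh-C alone and the dim SNORD79 (-1.12, below background) in *ROR2* KD alone. None of these differences between lines passed the test of the difference itself. By limma 0 of 89 were called, against 0.0476% of all symbols with a more upward and 0.0268% with a more downward change in *ROR2* KD. At an unadjusted p under 0.05, 19 snoRNAs had a more upward change in *ROR2* KD and 0 a more downward one (21.3% of members in either direction against 9.89% of all symbols). For a snoRNA that fell in sh-C, more upward means a smaller fall or a rise. Without *ROR2* KD replicate 1 of day 7, which stood high, 28 snoRNAs rose and 6 fell in *ROR2* KD, and without replicate 3 of that day 2 members passed the test of the difference.

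SNORD71 lies in an intron of *AP1G1*, which encodes an adaptor subunit of clathrin-coated vesicles. Its log2 signal in sh-C was 11.94, 11.17 and 11.29 on day 0 and 16.05, 15.77 and 16.17 on day 7. In *ROR2* KD it was 11.71, 11.78 and 11.53, then 16.51, 15.75 and 15.55. The arrays of days 0 and 7 lay far apart in both lines. The change was 4.53 in sh-C (SE 0.26, 23.1-fold, adjusted p = 3.04e-12) and 4.27 in *ROR2* KD (SE 0.26, 19.2-fold, adjusted p = 1.00e-11). On days 14 and 21 it stayed between 15.63 and 16.85 on all 12 arrays. *AP1G1* itself was 0.93 lower in sh-C and 0.56 lower in *ROR2* KD over the first week, and neither change was called.

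SNORD41 lies in *TNPO2*, a nuclear import receptor gene. Its 3 sh-C arrays of day 0 read 14.64, 14.05 and 13.58, and those of day 7 read 16.45, 16.20 and 16.26. The *ROR2* KD arrays read 13.86, 13.79 and 13.79, then 17.17, 16.63 and 16.52. Both rises were called, at 2.21 and 2.96 (SE 0.25 each, adjusted p = 3.23e-07 and 4.09e-09), and the plateau lasted to day 21. SNORD41 has 2 clusters, and with their mean in place of the brighter one the rise in *ROR2* KD was 2.01.

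SNORD94, a guide for U6 RNA in *PTCD3*, was below background on day 0. It rose from 6.56, 6.08 and 6.56 to 8.95, 8.91 and 9.22 in sh-C. In *ROR2* KD it went from 6.05, 6.29 and 6.57 to 9.44, 7.54 and 8.29. The changes were 2.62 and 2.12 (SE 0.34, adjusted p = 1.95e-06 and 3.97e-05) and both rest on a day 0 signal that was below background.

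Guides for U6 RNA had 5 measured symbols. All 5 (SNORD7, SNORD8, SNORD9, SNORD67 and SNORD94) were called higher in *ROR2* KD and 4 of them in sh-C, the exception being SNORD9 at 0.70, against 10.9% and 10.2% of all symbols higher. SNORD7 and SNORD67 were below background throughout. SNORD8 and SNORD9 both lie in *CHD8*, a chromatin remodeller gene. SNORD8 rose by 1.61 in sh-C and 1.99 in *ROR2* KD (SE 0.34, adjusted p = 0.000751 and 7.37e-05), while *CHD8* changed by 0.46 and 0.34 without a call.

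The rRNA processing snoRNAs had 7 measured symbols. In sh-C, SNORD14E was higher and SNORD14A lower, and in *ROR2* KD 5 were higher, SNORD14E and the 4 U3 copies. SNORD14E was above background only on the arrays of day 7, so its rises start from dim signal. Of all symbols, 10.2% were higher and 17.4% lower in sh-C, and 10.9% higher in *ROR2* KD. SNORD3A read 15.95, 15.99 and 15.75 on day 0 and 16.32, 16.33 and 16.28 on day 7 in sh-C, a change of 0.41 that was not called. In *ROR2* KD it read 15.37, 16.19 and 15.34, then 17.34, 16.93 and 16.31, a called change of 1.23 (SE 0.25, adjusted p = 0.000649). Replicate 1 of day 7 carried the highest value of SNORD3A among all arrays. The test of the difference between lines gave 0.81 for SNORD3A and 1.46 for SNORD3D (adjusted p = 0.182 for the latter), with no call. U13 (SNORD13), the brightest member, moved from 18.79 to 19.12 in sh-C and from 18.85 to 19.29 in *ROR2* KD, both without a call.

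The snoRNAs of ribosomal protein hosts split. Of 11, 2 rose and 4 fell in sh-C (18.2% and 36.4%, against 10.2% and 17.4% of all symbols). In *ROR2* KD 3 rose and 1 fell (27.3% and 9.09%, against 10.9% and 14.8%). *RPL7A* holds 3 of them. SNORD36C rose by 2.37 in sh-C and 2.85 in *ROR2* KD (SE 0.31, adjusted p = 2.00e-06 and 1.62e-07). SNORD24, a guide for 28S rRNA from the same host, read 16.83, 16.61 and 16.51 on day 0 and 15.20, 15.51 and 15.59 on day 7 in sh-C, a fall of 1.22 (SE 0.29, adjusted p = 0.00304). In *ROR2* KD it read 16.63, 16.37 and 16.43, then 17.80, 17.42 and 16.54, which was not called (0.78, adjusted p = 0.0566). *RPL7A* changed by 0.63 and 0.31 with no call. In sh-C, therefore, SNORD24 and SNORD36C were called in opposite directions although both lie behind the *RPL7A* start printed above. All 3 *RPL7A* snoRNAs are on unplaced clusters.

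*RPS12*, the other host shown with a pyrimidine run, holds SNORD100 and SNORD101. SNORD100, a guide for 18S rRNA, rose and then fell in both lines. Its sh-C arrays read 10.79, 10.68 and 10.68 on day 0, 12.00, 12.16 and 12.33 on day 7, 10.68, 10.43 and 11.18 on day 14, and 8.64, 9.13 and 8.51 on day 21. All 3 steps were called, the first at 1.45, the second at -1.40 and the last as a 4.01-fold fall (SE 0.29 on the log2 scale, adjusted p = 0.000416, 0.00327 and 5.47e-05). The *ROR2* KD arrays went from 10.08, 9.62 and 9.61 to 12.90, 11.76 and 11.60, then to 10.64, 10.96 and 10.81, and ended at 9.35, 8.64 and 9.02. Its steps in *ROR2* KD were 2.31, -1.28 and -1.80, and each was called (adjusted p = 1.22e-06, 0.00573 and 0.000181). SNORD101 changed by -0.67 in sh-C and 0.01 in *ROR2* KD over the first week, with no call, and *RPS12* by -0.21 and -0.30.

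SNORD93 showed the largest fall. It lies in the noncoding host gene *SNHG26* and was below background on all 24 arrays, so its folds rest on dim signal. In sh-C it read 9.23, 9.31 and 9.19 on day 0, 6.35, 6.39 and 5.98 on day 7, and 4.69, 4.50 and 4.31 on day 21. The first step was -3.00 (SE 0.26, 8.01-fold lower, adjusted p = 4.50e-09). The *ROR2* KD arrays read 8.21, 8.33 and 7.42, then 6.03, 6.13 and 5.36, and on day 21 4.62, 3.88 and 4.30, with a first step of -2.15 (adjusted p = 9.81e-07). The day with the highest background level is also day 0.

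SNORD72 lies in *RPL37* and, with SNORD24, SNORD44 and SNORD95, is among the 4 measured snoRNAs that are used as reference RNAs in small RNA qPCR. Its sh-C arrays fell from 10.59, 10.33 and 10.35 to 8.58, 8.20 and 8.34 (-2.05, SE 0.32, adjusted p = 2.31e-05). Those of *ROR2* KD read 10.44, 9.15 and 9.11, then 9.13, 8.62 and 7.93, and the groups overlapped (-1.01, adjusted p = 0.0216). Thus 2 of the 4 reference snoRNAs were lower after a week in sh-C, and 1 in *ROR2* KD, against 17.4% and 14.8% of all symbols. SNORD44 and SNORD95 were below background throughout, on clusters of another chromosome than their genes. SNORD14A, a U14 copy in *RPS13*, also fell in sh-C, from 11.97, 12.11 and 11.43 to 9.94, 10.09 and 9.94 (-1.85, SE 0.27, adjusted p = 8.61e-06). In *ROR2* KD it was 0.83 lower, under the fold threshold (adjusted p = 0.0239).

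Of the 3 measured imprinted symbols outside the excluded families, SNORD112 rose in both lines (2.44 and 2.50) and SNORD64 fell in both (-1.36 and -1.11), each on a cluster of another chromosome than the gene. SNORD112 was above background on 1 of 24 arrays and SNORD64 on 0, so both changes rest on dim signal. SNORD109B, in *SNHG14*, was called in sh-C only at later steps, from 9.98 on day 7 to 8.84 and 7.51 on days 14 and 21 (-1.13 and -1.33, SE 0.25, adjusted p = 0.00589 and 0.00114). In *ROR2* KD its means on days 7, 14 and 21 were 9.41, 8.56 and 7.80, and each step was under the fold threshold. SNORD109B was below background on sh-C replicate 3 of day 14 and all sh-C arrays of day 21. The same held for *ROR2* KD replicates 1 and 3 of day 21, so its falls end in dim signal.

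**Figure D3:**
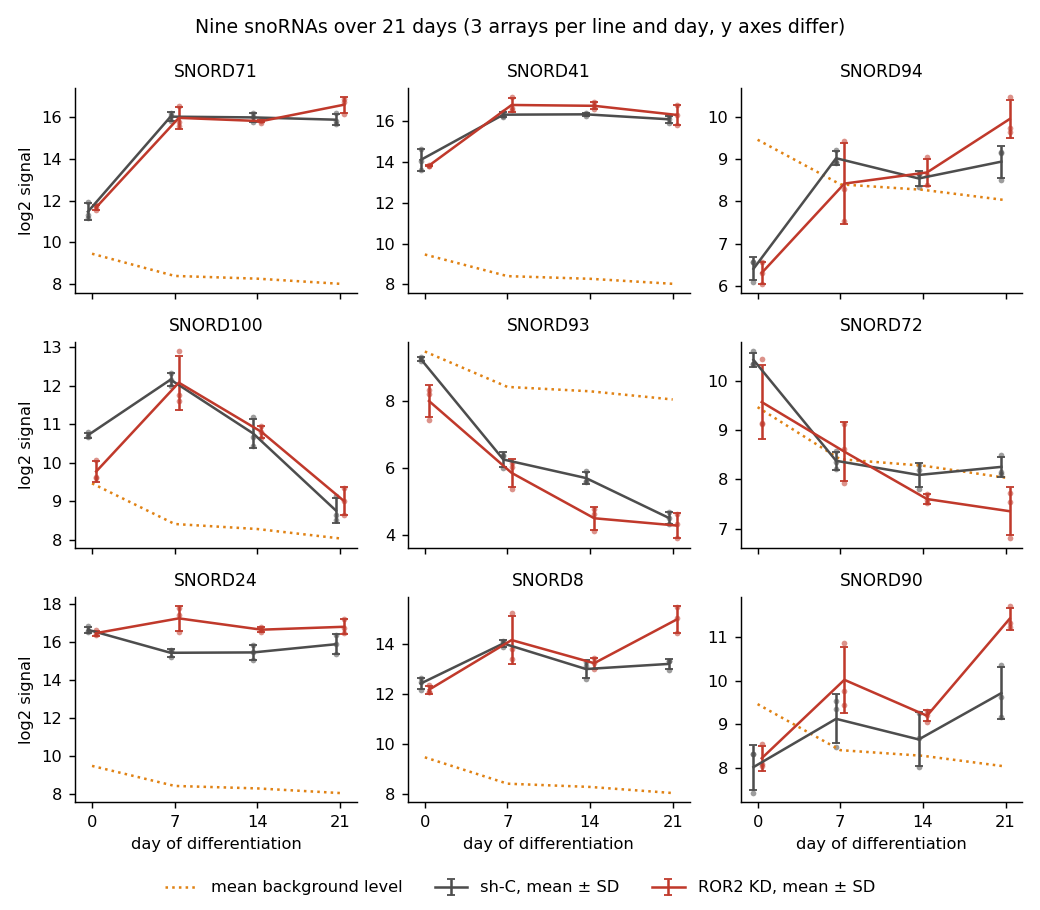
Log2 signal of 9 snoRNAs on days 0, 7, 14 and 21 in sh-C (grey) and *ROR2* KD (red), with arrays as points, group means as lines, SD as bars (n = 3) and the mean background level of the 6 arrays of a day dotted. SNORD71 and SNORD41 rise once and stay high, SNORD100 rises and falls, SNORD93 falls, and SNORD8 and SNORD90 are higher in *ROR2* KD on day 21.

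Changes of the host genes were set beside those of their snoRNAs. A cluster was available for 26 hosts of 36 snoRNAs. Of these hosts, *RPS3A*, *PHETA2*, *KIF9*, *SNHG19*, *CKAP5* and *AMMECR1* were below background on all arrays of days 0 and 7. For them a missing call does not show a stable host. In the first week 19 of the 36 snoRNAs were called in sh-C, and for 5 of them the host was called in the opposite direction, for 3 in the same direction and for 11 not at all. In *ROR2* KD 19 were called, 6 with an opposite call of the host, 0 with the same and 13 with none. Over that week 10.2% of all symbols rose and 17.4% fell in sh-C, and 10.9% and 14.8% in *ROR2* KD. Of the 89 members, 30.3% rose and 8.99% fell in sh-C, and 42.7% and 4.49% in *ROR2* KD. Whether opposite calls exceed what these general directions give was not tested. The opposite pairs in sh-C were SNORD59A and SNORD59B with *ATP5F1B*, SNORD66 with *EIF4G1*, SNORD82 with *NCL* and SNORD119 with *SNRPB*. All 5 had opposite calls in *ROR2* KD too, and SNORD11B with *NOP58* was added. SNORD66 was above background on 0 of 24 arrays, SNORD11B on 1, and SNORD59B and SNORD119 on none of day 0. *NCL* encodes nucleolin and *SNRPB* a core protein of spliceosomal RNPs.

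SNORD82, a guide for 18S rRNA, read 14.81, 14.92 and 14.72 on day 0 and 16.50, 16.32 and 16.34 on day 7 in sh-C. It rose by 1.57 (SE 0.27, adjusted p = 9.28e-05) while *NCL* fell by 1.64 (adjusted p = 5.97e-07). In *ROR2* KD SNORD82 rose by 2.07 and *NCL* fell by 1.26. SNORD119, a guide for 28S rRNA, read 8.90, 8.45 and 7.54 on day 0 and 10.41, 10.52 and 10.09 on day 7 in sh-C. It rose by 2.04 against a fall of *SNRPB* of 2.59, and in *ROR2* KD by 2.55 against a fall of 2.21. SNORD119 was below background on all arrays of day 0, and *SNRPB* on day 7 on the 3 sh-C arrays and 2 of the 3 *ROR2* KD arrays, so these sizes rest partly on dim signal. The same-direction pairs in sh-C were SNORD11 (-1.59) and SNORD70 (-1.63) with *NOP58* (-1.93), and SNORD56B (3.01) with *SIPA1L1* (1.36). SNORD56B was below background on all 24 arrays and *SIPA1L1* on the 3 sh-C arrays of day 0.

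The mRNAs for proteins of the particle were compared over the same week. Of 10 measured genes for core and assembly proteins, 7 were lower on day 7 than on day 0 in sh-C and 6 in *ROR2* KD, and 0 were higher, against 17.4% and 14.8% of all symbols lower. One of those called in both lines, *PIH1D1*, was below background on all arrays. *FBL*, the methyltransferase, fell by 1.16 in sh-C and 1.34 in *ROR2* KD, *NOP58* by 1.93 and 1.62, *SNU13* by 2.12 and 1.48, and the assembly ATPase gene *RUVBL2* by 3.38 and 2.99. *ZNHIT3*, *ZNHIT6* and *RPAP3* were not called in either line, and *NUFIP1* was called in sh-C alone.

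**Figure D4:**
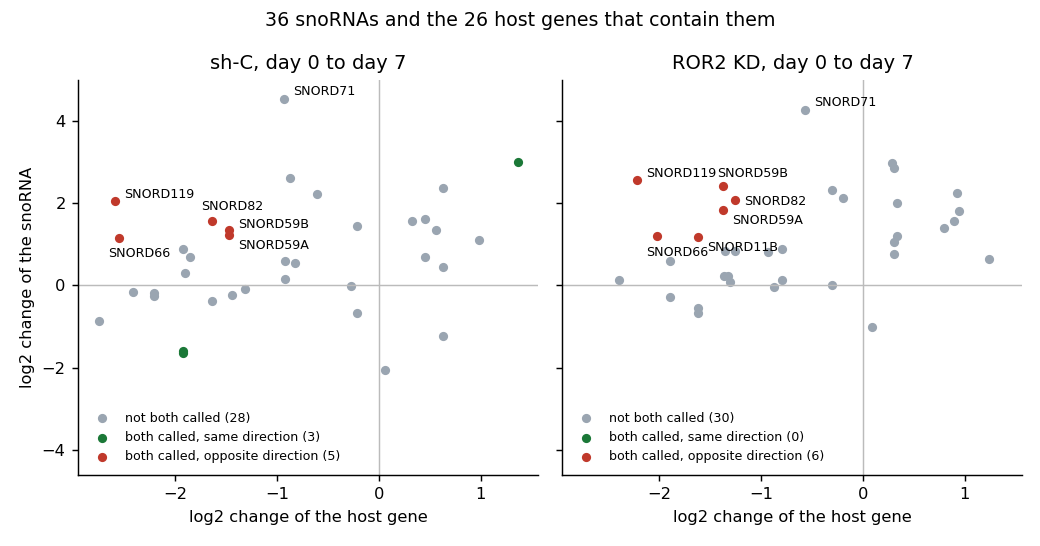
Log2 change from day 0 to day 7 of 36 snoRNAs (y axis) against that of the gene containing each (x axis, 26 hosts), in sh-C and *ROR2* KD. Red points mark opposite calls (5 in sh-C, 6 in *ROR2* KD) and green points the same call (3 in sh-C, 0 in *ROR2* KD).

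After day 7 the calls were fewer and mostly downward. From day 7 to 14, 0 snoRNAs rose and 7 fell in sh-C, against 3.97% and 3.1% of all symbols. In *ROR2* KD 1 rose and 10 fell, against 5.16% and 3.73%. At an unadjusted p under 0.05, 2 rose and 18 fell in sh-C (22.5% of members against 21% of all symbols). Of the called falls, 3 of 7 in sh-C and 3 of 10 in *ROR2* KD were below background on all 6 arrays. SNORD124 (-1.40), SNORD100 (-1.40) and SNORD14E (-1.19) fell most in sh-C. SNORD124 was below background on all arrays, and SNORD14E on all sh-C arrays of day 14. The call of SNORD14E was lost without sh-C replicate 2 or 3 of day 7 or replicate 1 or 2 of day 14 (adjusted p = 0.0682 to 0.138), and that of SNORD124 without replicate 2 of day 7 or of day 14 (adjusted p = 0.052 and 0.103). SNORD63, SNORD17 and SNORD99, all guides for 28S rRNA, fell most in *ROR2* KD (-1.65, -1.60 and -1.44, adjusted p = 0.0119, 0.00835 and 0.00268). *ROR2* KD replicate 1 of day 7 bears on this step: without it 5 snoRNAs were called, and without replicate 3 of that day 17 were. SNORD63 read 14.21, 13.39 and 12.26 on those 3 arrays of day 7 and 11.53, 11.67 and 11.72 on day 14. Its fall was not called without replicate 1 of day 7 (adjusted p = 0.0727), nor over the mean of its 4 clusters (-0.38, adjusted p = 0.235). The single rise was SNORD56, from 6.65 to 9.37 (2.72, adjusted p = 0.000151), on a chromosome 7 cluster while its RefSeq gene is on chromosome 20. Over the mean of its 6 clusters the rise was 0.39 and was not called.

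From day 14 to 21, 0 snoRNAs rose and 10 fell in sh-C, against 2.64% and 4.69% of all symbols. At an unadjusted p under 0.05, 3 rose and 26 fell there (32.6% of members against 24.6% of all symbols). In *ROR2* KD 6 were called higher and 4 lower, against 3.21% and 5.75% of all symbols. Centring each array on its median turned the latter split to 3 higher and 7 lower, since it moved the median change of all symbols from -0.01 to -0.16. Of the falls, 5 of 10 in sh-C and 1 of 4 in *ROR2* KD were below background on all 6 arrays. The falls called in both lines were SNORD56B, SNORD69, SNORD81 and SNORD100. SNORD56B was above background on 0 of 24 arrays and SNORD81 on 3. In sh-C, SNORD69 was below it on replicates 1 and 3 of day 21. SNORD69 fell from 9.75, 9.67 and 10.44 to 7.85, 8.50 and 8.12 in sh-C (-1.80, adjusted p = 0.00104) and by 1.47 in *ROR2* KD (adjusted p = 0.00573). It lies with SNORD19 in *GNL3*, the nucleostemin gene, and SNORD19, below background, fell by 1.81 in sh-C. The 6 rises in *ROR2* KD were SNORD90 (2.23), SNORD8 (1.76), SNORD63 (1.69), SNORD9 (1.38), SNORD94 (1.27) and SNORD92 (1.23), so that 3 of the 5 U6 guides were among them. SNORD63 changed by 0.40 over the mean of its clusters (adjusted p = 0.19), and its rise was not called without *ROR2* KD replicate 1 or 3 of day 21 (adjusted p = 0.0535 and 0.0608). By limma, a change of the difference between lines was called for 0 of 89 members at this step. Of all symbols, 0.83% were called upward and 0.55% downward. At an unadjusted p under 0.05, the difference moved upward for 17 members and downward for 1 (20.2% of members against 9.49% of all symbols). Between days 7 and 14, such a change was called for 0 of 89, against 0.547% and 0.327% of all symbols. There the difference moved upward for 3 and downward for 5 at an unadjusted p under 0.05 (8.99% of members against 8.98% of all symbols).

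Comparing *ROR2* KD with sh-C on the same day shows how these transduced lines differed, whether by the knockdown or otherwise. On day 0 no member was called, against 0.0268% of all symbols higher and 0.0535% lower. At an unadjusted p under 0.05, 1 was higher and 14 were lower (16.9% of members against 12% of all symbols), and the unpaired test of the study's methods, adjusted, also called 0. The median difference was -0.22, against -0.10 over all symbols. The largest difference below 0 was that of SNORD93 (-1.25, adjusted p = 0.085).

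On day 7, 12 members were higher and 5 lower at an unadjusted p under 0.05 (19.1% of members against 10.6% of all symbols). Only 1 member was called higher, SNORD24, against 0.113% of all symbols, and 0 were called lower, against 0.164%. The 3 *ROR2* KD arrays, at 17.80, 17.42 and 16.54, all lay above the sh-C arrays at 15.20, 15.51 and 15.59. The difference was 1.82 (SE 0.29, 3.52-fold, adjusted p = 0.00499). The day 0 value was -0.18. It was 1.20 on day 14 and 0.92 on day 21 (adjusted p = 0.0637 and 0.129, neither called), and the arrays of the lines did not overlap on days 7, 14 and 21. The change of the difference from day 0 to 7 was 1.99 (SE 0.42, adjusted p = 0.0836). Its neighbours in *RPL7A* differed by 0.39 (SNORD36A) and 0.14 (SNORD36C) on day 7, and *RPL7A* by -0.24. The call for SNORD24 was lost with the 6 arrays of the day alone (adjusted p = 0.185), under the unpaired test (adjusted p = 0.53), and without sh-C replicate 1 (adjusted p = 0.0506). Without *ROR2* KD replicate 3 of day 7, 2 members were called.

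On day 14, 1 member was lower, SNORD93, against 0.77% of all symbols lower and 0.934% higher. Its *ROR2* KD arrays read 4.75, 4.61 and 4.10 and its sh-C arrays 5.89, 5.57 and 5.60 (-1.20, SE 0.26, adjusted p = 0.0247), all below background. Leaving out any sh-C array of the day, or *ROR2* KD replicate 2 or 3, ended the call, and quantile normalization gave an adjusted p of 0.0628 and a split of 1 higher and 0 lower. At an unadjusted p under 0.05, 6 members were higher and 3 lower (10.1% against 10.3% of all symbols). The markers *PAX6*, *STMN2* and *DCX* also differed between the lines on that day, and their part was not tested.

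By day 21, 4 members were higher in *ROR2* KD and 0 lower, against 2.16% and 2.51% of all symbols. At an unadjusted p under 0.05, 26 were higher and 4 lower (33.7% of members against 18.2% of all symbols). The median difference was 0.29, and 62 of 89 differences were above 0, against a median of -0.02 over all symbols. H/ACA box symbols were higher in 5 of 74 and SNORD113 to SNORD116 symbols in 20 of 63. The cells also differed in their markers on that day: *PAX6* was 15.59 in *ROR2* KD and 5.01 in sh-C and *NES* was 14.52 and 15.60, both called, and of the 15 measured genes of the marker lists no others were called. Their part in the snoRNA differences was not tested, nor was that of short RNA recovery.

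SNORD8, the U6 guide in *CHD8*, read 15.49, 14.44 and 15.06 in *ROR2* KD and 12.97, 13.33 and 13.33 in sh-C on day 21. The lines did not overlap, and the difference was 1.79 (SE 0.34, 3.45-fold, adjusted p = 0.00233). SNORD9 of the same host read 11.80, 11.01 and 11.78 against 9.96, 10.59 and 10.38, a difference of 1.22 that was not called (adjusted p = 0.12). *CHD8* differed by 0.06. On days 0, 7 and 14 SNORD8 had differed by -0.25, 0.14 and 0.23, and the change from day 14 to 21 was 1.55 (SE 0.47, adjusted p = 0.301).

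SNORD90 lies in *RC3H2*, a gene for an RNA-binding ubiquitin ligase. Its *ROR2* KD arrays read 11.72, 11.33 and 11.24 on day 21 and its sh-C arrays 9.17, 10.36 and 9.62, again without overlap. The difference was 1.71 (SE 0.38, 3.27-fold, adjusted p = 0.0118), and *RC3H2* differed by -0.25. The call was lost under 5 of 17 alternatives: with the 6 arrays of the day (adjusted p = 0.0581), under the unpaired test (0.343), and without sh-C replicate 1 (0.102), sh-C replicate 3 (0.0513) or *ROR2* KD replicate 1 (0.0659). SNORD90 also differed in the same direction, without a call, on day 7 (0.90) and day 14 (0.54).

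SNORD104, a guide for 28S rRNA in the noncoding host *SNHG25*, read 15.55, 14.61 and 14.86 against 13.26, 14.04 and 13.67. The difference was 1.35 (SE 0.25, 2.55-fold, adjusted p = 0.00172). In sh-C it had fallen from a mean of 15.38 on day 7 to 13.65 on day 21, and in *ROR2* KD it was at 15.17 and 15.01. SNORD64, called higher at 5.09 against 3.84 (1.25, SE 0.28, adjusted p = 0.0108), was below background on all arrays, on a chromosome 1 cluster while its gene is on chromosome 15, and its call was lost under 4 of 16 alternatives (adjusted p up to 0.496), among them leaving out sh-C replicate 1 or *ROR2* KD replicate 2. The U3 copy SNORD3A was 0.87 higher without a call (adjusted p = 0.0784). For the called snoRNAs with a host cluster on days 7 and 21, SNORD24, SNORD8 and SNORD90, the host was not called. With the 6 arrays of day 21 alone 1 member was called, with the unpaired test 0, without sh-C replicate 1 2, and without *ROR2* KD replicate 2, the lower of the 2 arrays that stood apart, 8.

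**Figure D5:**
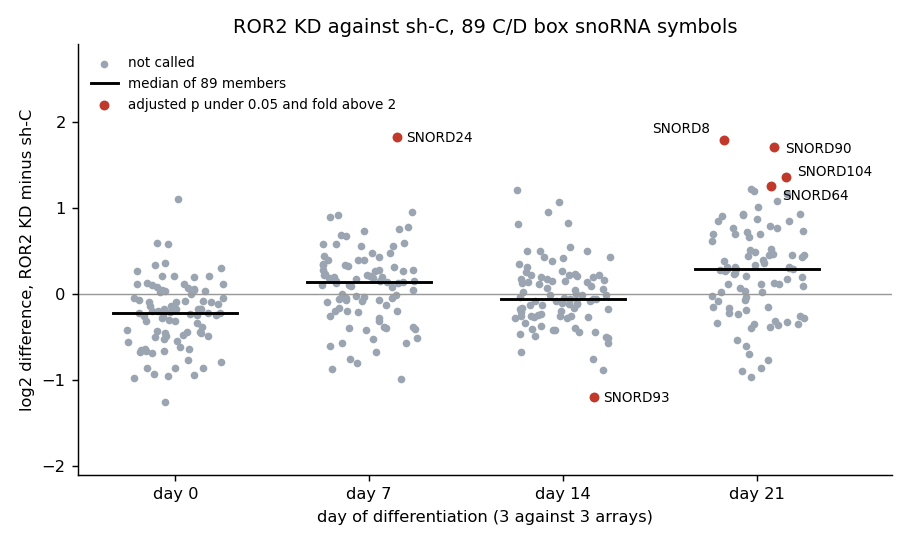
Log2 difference of *ROR2* KD minus sh-C for the 89 symbols on each day (3 against 3 arrays), with called symbols in red and the median as a bar. The median moves from -0.22 on day 0 to 0.14, -0.06 and 0.29, and the called symbols are SNORD24 on day 7, SNORD93 on day 14, and SNORD8, SNORD90, SNORD104 and SNORD64 on day 21.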

How the data were processed

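The authors purified total RNA with a column kit that retains short RNAs poorly. The deposited log2 values were made by the authors with RMA (background correction, normalization across arrays and a summary of the probes of each transcript cluster) in the Transcriptome Analysis Console. The genome build is not given in the sources used here. After removal of 2995 controls from the 138745 probe sets, no further filter or scaling was applied. The number of arrays limits the precision.

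A model of 8 group means was fitted to all 24 arrays with limma 3.58.1 in R 4.3.3 (two-sided, Benjamini-Hochberg over 135750 clusters). A call needs an adjusted p under 0.05 and a fold above 2. Counts of all symbols use 1 cluster per symbol, the brightest. Hosts were assigned by RefSeq spans, which carry no strand here, and not for symbols whose cluster lay on another chromosome than the RefSeq gene.

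Named are called members with the largest changes (up to 5 each way per day between lines, where the arrays do not overlap, and up to 3 each way per step within a line), those called on at least 2 days between lines (there were none), the 5 brightest and 5 dimmest, members of the lists (rRNA processing, U6 guides, reference RNAs, imprinted), *ROR2* and the cell markers. Further members, hosts and snoRNAs of the same host were chosen after their values were seen. Members and lists were chosen with earlier results of these data known. Other settings tried were centring on array medians, quantile normalization, a replicate block, array weights, a variance trend, a background filter, dropping the fold threshold, averaging the clusters of a symbol, fitting the arrays of 1 day, the unpaired test of the study's methods, and leaving out each replicate.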

Additional observations from a re-analysis of the deposited data

How the results depend on the processing

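Of the alternative values of the counts of called snoRNAs, 190 stayed within 1.5 times the count reported and 31 did not, and no direction reversed for any named snoRNA (470 kept their call and 42 lost it). Between lines, day 0 gave 1 call with a replicate block. Day 7 gave 0 with the 6 arrays of the day and 0 with the unpaired test. Day 14 gave 2 with a variance trend, 2 with array weights, 2 with the 6 arrays of the day, 0 with the unpaired test and 2 without the 4 arrays with the highest medians, an alternative chosen after seeing the data (*ROR2* KD day 7 replicates 2 and 3 and replicate 3 of day 21 in both lines). Day 21 gave 1 with the 6 arrays of the day, 0 with the unpaired test and 8 without those 4 arrays. From day 7 to 14 in *ROR2* KD, the mean of the clusters of a symbol gave 6 and leaving out the 4 arrays gave 18. For the change of the difference from day 0 to 7, the background filter, which kept 20709 clusters and 46 members, gave 3, and leaving out the 4 arrays gave 3. The cause was not tested.

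Leaving out each replicate in turn gave 0 to 0 calls between lines on day 0, 0 to 2 on day 7, 0 to 1 on day 14 and 2 to 8 on day 21. Within sh-C it gave 32 to 36, 3 to 6 and 7 to 12 for the 3 steps, and within *ROR2* KD 34 to 41, 5 to 17 and 7 to 12. For the changes of the difference it gave 0 to 2, 0 to 0 and 0 to 0. The arrays behind the larger moves of the step from day 7 to 14 in sh-C were replicates 2 (4 calls) and 3 (3 calls) of day 7 and replicates 1 and 2 (3 calls each) of day 14. From day 14 to 21 in *ROR2* KD, the split of 6 higher and 4 lower became 3 and 4 without replicate 1 or 2 of day 14, 3 and 8 without replicate 1 of day 21, 9 and 3 without replicate 2, and 6 and 6 without replicate 3 of day 21.

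Same-numbered arrays of both lines did not deviate together (r = -0.0239 to 0.224, 6 of 12 best with their own number, 1 pair over 0.1), so the numbers were not used for pairing. A fit with a replicate block changed the count on day 0 (1 call) and moved no other count by more than 1.5 times. Centring each array on its median moved the median change of all symbols from -0.0615 to 0.0872 for *ROR2* KD between days 7 and 14, from -0.0191 to -0.127 for sh-C between days 14 and 21, and from 0.01 to -0.108 between lines on day 7.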
